A study of Mus musculus with 14 samples.

Results

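The 35 genes described here repair DNA or signal its damage, and they were taken by name from the 36161 gene names on a one-color Agilent mouse expression array. A gene with several probes was read at its brightest one over all 14 arrays. The arrays fall into 5 groups. Healthy small intestine (3 arrays) and colon (3 arrays) are whole tissue labelled C57BL/6J, the strain in which all mice of the study were kept. Macroscopic adenomas (3 arrays) and the tissue adjacent to an adenoma (2 arrays) are whole tissue labelled APCmin/+, mice that carry 1 mutant copy of the tumour suppressor *Apc* and grow many small intestinal adenomas. CT26 (3 arrays) is a mouse colon carcinoma cell line of BALB/c origin, grown as a culture of tumour cells with no other tissue around them.

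Several features of the samples limit what the groups can stand for. The study's list of samples places the adenoma and adjacent pieces in the same APCmin/+ mouse, so their spread is that between pieces of 1 animal, and it places 1 colon sample used for arrays under an APCmin/+ mouse although all 3 colon arrays are labelled C57BL/6J. The study calls the replicates of tissues and cell lines in its methylation assay biological, but nothing states that the CT26 arrays came from separate cultures. Colon replicate 3 stood apart: over all probes it correlated with the small intestine arrays (r from 0.96 to 0.966) more closely than with the other colon arrays (0.937 and 0.939), which correlated with each other at 0.979. The summed level of 10 small intestinal enterocyte genes was 3957 times the 75th percentile signal on that array, against 117 and 192 on the other colon arrays and 2652 to 3989 in small intestine. Counts and called genes that rest on colon are therefore given with and without it. The small intestine arrays were uneven as well. On the log2 scale defined below, the enterocyte gene *Fabp6* read 9.95, 1.60 and -1.74 on them, and 8.12 and -0.83 in adjacent tissue. The median of 10 proliferation genes was 2.31, 1.37 and 1.01 on small intestine replicates 1 to 3. Of 8 epithelial markers, *Epcam*, *Cdh1*, *Krt19* and *Vil1* were not well above background on any of the 3 CT26 arrays, *Krt8* was on 2, and *Krt18*, *Krt20* and *Cldn7* were on all 3.

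A cell repairs different lesions by different routes. Breaks of both strands are joined directly by the end joining proteins or are copied from the sister chromatid by homologous recombination, which works in dividing cells and shares proteins with the Fanconi anaemia pathway that undoes crosslinks between strands. Wrong or damaged bases are removed by mismatch, base excision and nucleotide excision repair, or reversed in place by a methyltransferase, while the kinases ATM and ATR and their targets CHEK2 and CHEK1 halt the cell cycle. The intestine renews its epithelium from dividing crypt cells, and inherited loss of mismatch repair is known for causing intestinal cancer.

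Promoters of 29 of the 35 genes were found in RefSeq tables of build GRCm38.p6, each covering 250 bases before the transcription start and 50 after it. The words TTTCCCGC, TTTCGCGC, TTTGCCGC and TTTGGCGC, which are forms of the site read by the E2F factors of the cell cycle, were searched on both strands, where they may overlap. They occurred in 9 of the 29 promoters (31%), those of *Brca2*, *Bard1*, *Rad51c*, *Fancg*, *Msh3*, *Msh6*, *Chek2*, *Atad5* and *Xrcc6*, against 704 of 27025 gene symbols in the table (2.6%). The pentamer CCAAT was found in 16 of the 29 (55.2%) against 41.1% of all symbols, and the cell cycle element TTTGAA in 1, *Bard1* (3.4%), against 20.2%. Base composition was not matched between these promoters and the rest. The stretches below are shown because they hold an E2F word, in capitals, wholly upstream of the start, and each is written 5′ to 3′ on the strand of its gene. With all arrays, *Bard1* was called in both adenomas and CT26 cells, *Brca2* in adenomas and *Xrcc6* in CT26 cells, and *Fancg*, *Chek2* and *Msh3* in neither. The *Msh3* stretch holds a second, overlapping word on the other strand that is not marked.
*Brca2*, chr5:150522442-150522471, plus strand: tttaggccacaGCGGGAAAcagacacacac
*Bard1*, chr1:71103163-71103192, minus strand: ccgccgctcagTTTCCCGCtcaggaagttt
*Xrcc6*, chr15:82016312-82016341, plus strand: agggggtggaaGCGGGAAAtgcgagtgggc
*Fancg*, chr4:43010335-43010364, minus strand: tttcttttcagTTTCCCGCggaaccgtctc
*Chek2*, chr5:110839820-110839849, plus strand: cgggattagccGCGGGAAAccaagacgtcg
*Msh3*, chr13:92355187-92355216, minus strand: ttgccgtcaagTTTGGCGCgaaatcgcagc

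Probe letters mattered for 3 of the genes. The sole probe for *Ung* and the sole probe for *Rad51c* contain a run of alternating T and G, of 34 and 16 bases among their 60, and the brightest probe for *Rad18* ends in an AC run of 15 bases. A stretch of 30 bases is shown for each, with the repeat in capitals.
*Ung* probe, bases 27 to 56: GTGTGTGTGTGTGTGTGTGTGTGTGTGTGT
*Rad51c* probe, bases 1 to 30: TGTGTGTGTGTGTGTGgtggtggtggtgtt
*Rad18* probe, bases 31 to 60: acaacaacaaaacaaACACACACACACACA

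Values are given below as the log2 of the processed signal minus the 75th percentile of the array, so that 0 is the level of a fairly bright probe, and are called levels. A gene was called between groups when its log2 difference was at least 1.2 in size and its adjusted p was at most 0.01 in limma, with p-values adjusted over all probes tested, and the wording rose or fell is kept for such genes unless another threshold is named. A probe was tested when it was well above background, by the scanner software's own flag, on every array of at least 1 of the groups compared. Of the 35 genes, 27 were well above background on all 14 arrays and 24 were read by 1 probe. The called genes *Fanca*, *Rad54b* and *Xrcc2* each have a second probe, whose values are not given here. Levels of different genes are not comparable, since each probe binds with its own strength.

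**Figure D1:**
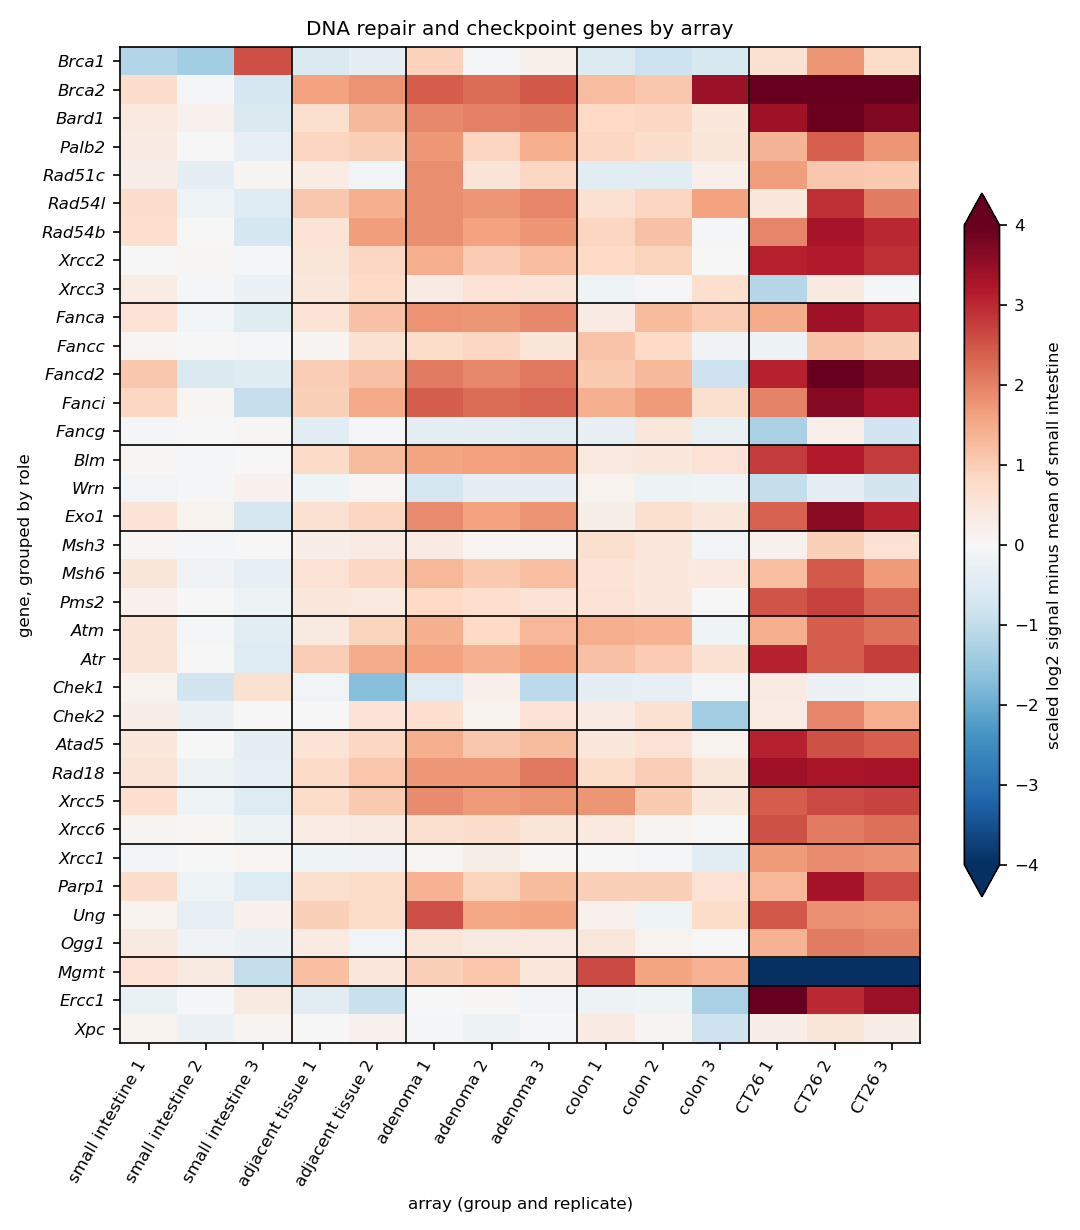
Level of each of the 35 genes (rows, by role) on each of the 14 arrays (columns, by group), as the log2 difference from the mean of the 3 small intestine arrays; the color scale ends at 4 in either direction. Many rows are higher in adenoma and CT26 than in small intestine, while *Mgmt* in CT26 is far below the small intestine level.

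Adenomas held more RNA than healthy small intestine for many of the homologous recombination, Fanconi anaemia and fork genes. Of the 35 genes 33 were tested, and 16 rose and 0 fell, where 11.3% of the 22094 genes tested on the array rose and 11.1% fell. The median log2 difference of the 33 was 1.19, with a range from -0.50 to 2.39, against -0.15 over all genes. *Brca1* and *Chek1* were too dim to test. Without adenoma replicate 1, 2 or 3 the count was 5, 7 or 6, and without small intestine replicate 2 it was 6, always with the same direction for the 16. *Brca2*, *Bard1*, *Blm* and *Rad18* were the 4 that passed whichever single array was left out. At an adjusted p of at most 0.05 with no limit on size, 23 rose and 1, *Wrn*, fell (22.7% of all genes rose and 30.2% fell by this rule). The 16 differed in the same direction within each of the 2 slides, each of which was scanned as a unit. They were called on these same arrays, and slide 2 held 1 array of each group, so this is not separate support.

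Homologous recombination gave 6 of the 16. *Brca2*, a tumour suppressor that is needed for recombination, had levels of -1.14, -1.89 and -2.53 in small intestine, -0.25 and -0.06 in adjacent tissue and 0.57, 0.39 and 0.64 in adenomas. Its 3 groups did not overlap and lay in that order. The difference of adenoma from small intestine was 2.39 ± 0.339 (SE), a 5.23-fold rise, with an adjusted p of 0.00157 in limma. *Bard1*, the partner of BRCA1 in an E3 ubiquitin ligase, read -0.61, -0.83 and -1.60 in small intestine, -0.38 and 0.30 in adjacent tissue and 0.91, 0.99 and 1.02 in adenomas. All adenoma arrays were above all others of the small bowel, and the rise was 1.99 ± 0.267 with an adjusted p of 0.00126. A second *Bard1* probe rose by a similar 2.05, but the remaining probe, well above background on all 14 arrays, differed by -0.20 (adjusted p = 0.352), so the 3 probes disagree.

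*Rad54l*, a motor protein of strand exchange, read -0.86, -1.73 and -2.06 in small intestine and 0.32, 0.22 and 0.39 in adenomas, a rise of 1.86 ± 0.307 (adjusted p = 0.00293). Its paralog *Rad54b* read -2.17, -2.83 and -3.55 against -0.98, -1.26 and -1.07, a rise of 1.75 ± 0.337 (adjusted p = 0.00528) that was 0.98 with normexp background correction and 1.08 with the values the authors normalized, below the size threshold. Both genes were separated between the groups, with the small intestine arrays spread more widely than the adenomas. *Xrcc2*, which acts in strand exchange, read -3.72, -3.66 and -3.77 against -2.27, -2.71 and -2.48, a rise of 1.23 ± 0.172 (adjusted p = 0.0015) that was 0.49 (adjusted p = 0.0432) with normexp correction. *Palb2*, which ties BRCA2 to BRCA1, read -3.88, -4.17 and -4.54 against -2.46, -3.33 and -2.75 and rose by 1.35 ± 0.278 (adjusted p = 0.00696). In small intestine it passed the background flag on 1 array of 3, and its second probe differed by 0.78 (adjusted p = 0.0748). With normexp correction the *Palb2* difference was 0.46 (adjusted p = 0.0498), and with the authors' values 0.64. *Rad51c* and *Xrcc3*, which act in the same step, differed by 1.07 (adjusted p = 0.0446) and 0.48 (adjusted p = 0.0736) and were not called.

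Of the Fanconi anaemia genes 3 of 5 rose. *Fanci* and *Fancd2* encode the pair of proteins whose ubiquitination starts crosslink repair. *Fanci* read -1.65, -2.43 and -3.40 in small intestine, -1.53 and -0.96 in adjacent tissue and -0.08, -0.27 and -0.16 in adenomas, a 5-fold rise over small intestine (log2 2.32 ± 0.410, adjusted p = 0.00376). *Fancd2* read -3.89, -5.55 and -5.43 against -2.88, -3.03 and -2.84, a rise of 2.04 ± 0.428 (adjusted p = 0.00745), and 2 of the 3 small intestine arrays read it as not well above background. With normexp correction the *Fancd2* difference was 0.44 (adjusted p = 0.0322), with the authors' values 0.65, and its call held in 3 of 14 alternative settings. *Fanca*, of the core complex that performs this ubiquitination, read 0.24, -0.45 and -0.83 against 1.46, 1.40 and 1.57 and rose by 1.83 ± 0.277 (adjusted p = 0.00208). In all 3 the adenoma arrays lay close together, above every small intestine array. The core members *Fancc* and *Fancg* differed by 0.68 (adjusted p = 0.0135) and -0.40 (adjusted p = 0.0508).

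*Blm*, the helicase that dissolves recombination intermediates, had the lowest adjusted p of the 33 genes tested between adenoma and small intestine. Its levels of -1.75, -1.90 and -1.83 in small intestine, -1.07 and -0.57 in adjacent tissue and -0.25, -0.20 and -0.15 in adenomas gave a rise of 1.63 ± 0.147 (adjusted p = 0.000279). *Wrn*, a helicase of the same family, had the most negative difference of the 33, at -1.42, -1.37 and -1.15 in small intestine and -2.03, -1.71 and -1.70 in adenomas. That difference of -0.50 ± 0.174 had an adjusted p of 0.0477 and was not called. The nuclease *Exo1*, which cuts back ends in recombination and mismatch repair, read -0.10, -0.50 and -1.28 against 1.26, 0.98 and 1.16, a rise of 1.76 ± 0.305 (adjusted p = 0.00349).

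At the replication fork both genes rose. *Rad18*, the ligase that marks PCNA for lesion bypass, read -1.25, -1.97 and -2.09 in small intestine, -0.996 and -0.66 in adjacent tissue and -0.05, -0.05 and 0.35 in adenomas (rise of 1.86 ± 0.262, adjusted p = 0.00155), and a second probe without the repeat rose by 1.999. *Atad5*, which unloads PCNA, read -1.53, -1.97 and -2.33 against -0.48, -0.86 and -0.66, a rise of 1.28 ± 0.239 (adjusted p = 0.00478). Among the checkpoint kinases *Atr*, which responds to stalled forks, rose from 0.94, 0.45 and -0.08 to 2.05, 1.86 and 2.04 (1.54 ± 0.267, adjusted p = 0.00349). *Atm*, which responds to breaks, differed by 1.19 (adjusted p = 0.0141) and *Chek2*, its target, by 0.47 (adjusted p = 0.107).

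In end joining 1 of 2 genes was called, in base excision 1 of 4 and in mismatch repair 0 of 3. *Xrcc5*, encoding the larger Ku subunit that caps broken ends, read 0.55, -0.26 and -0.61 in small intestine and 1.78, 1.59 and 1.68 in adenomas, a rise of 1.79 ± 0.299 (adjusted p = 0.00304). The other Ku subunit, *Xrcc6*, differed by 0.61 (adjusted p = 0.019). Of the mismatch repair genes, *Msh6*, which recognises single mispairs, differed by 1.19 and so fell just short in size with an adjusted p of 0.00621, *Pms2* by 0.67 (adjusted p = 0.0157) and *Msh3* by 0.16 (adjusted p = 0.412). The excision and reversal genes *Xrcc1*, *Ogg1*, *Mgmt*, *Ercc1* and *Xpc* differed by between -0.09 and 0.83, with adjusted p from 0.129 to 0.936. *Parp1*, the sensor of strand breaks, differed by 1.19 (adjusted p = 0.0217).

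**Figure D2:**
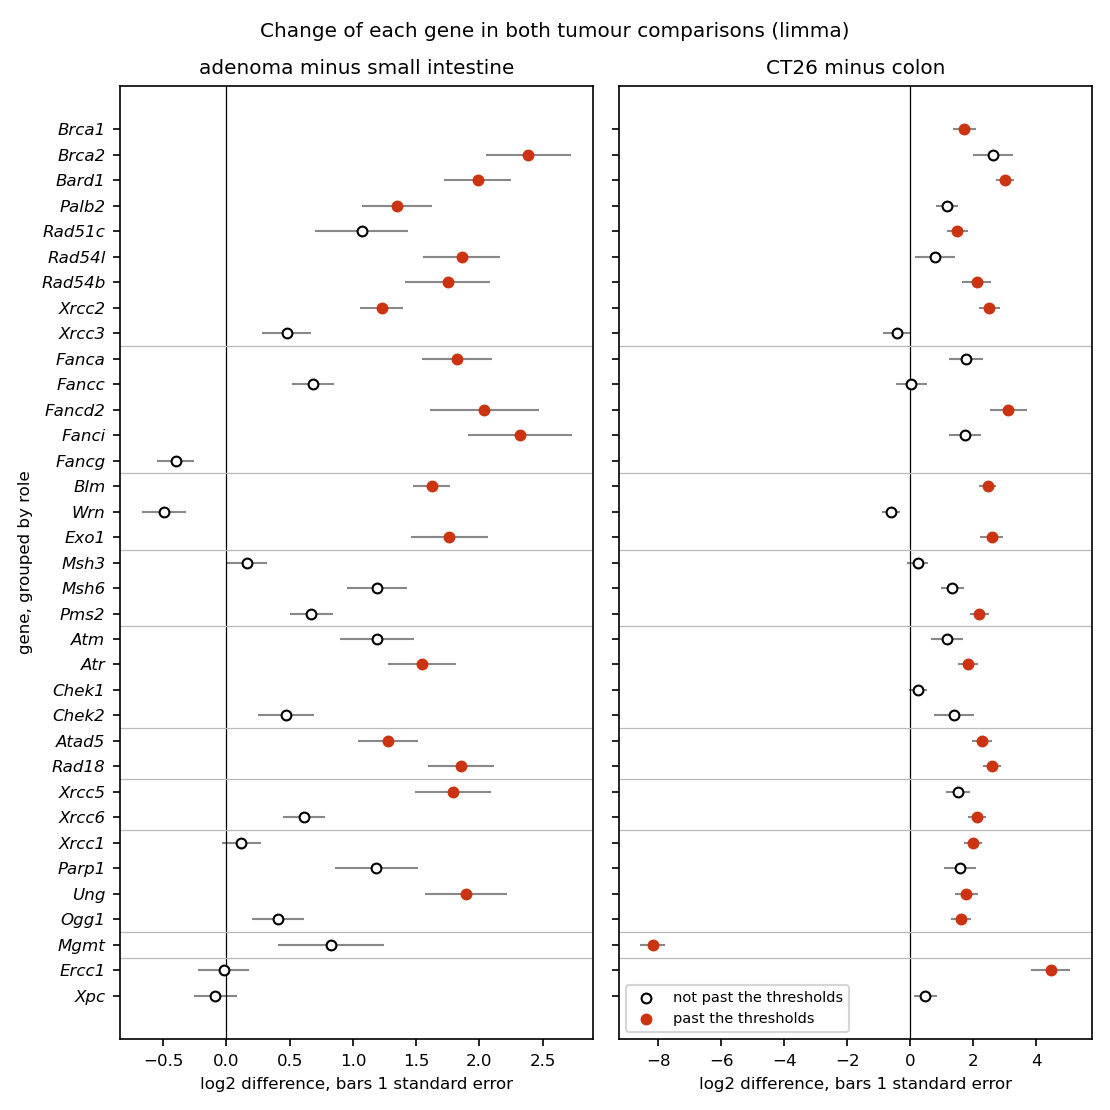
Log2 difference of each gene with its standard error, adenoma minus small intestine (left) and CT26 minus colon (right), on x axes of different scale. *Brca2* leads on the left at 2.39, while on the right *Ercc1* at 4.45 and *Mgmt* at -8.18 lie beyond all others.

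*Ung*, the uracil glycosylase that opens base excision, was the remaining gene of the 16, with levels of 4.70, 4.22 and 4.72 in small intestine, 5.49 and 5.27 in adjacent tissue and 7.13, 6.08 and 6.11 in adenomas (rise of 1.90 ± 0.321, adjusted p = 0.00323). Its probe is the TG repeat shown above. The 51 other probes on the array with a TG run of at least 20 bases, aimed at other genes, were all well above background on every array. They had a median difference of 1.85 between the same groups, 50 of them above 0. Over the 20832 probes of the array that were well above background on every array, it was -0.19. The median level of the 51 TG probes was 5.10, 4.56 and 5.19 in small intestine, 5.57 and 5.35 in adjacent tissue and 7.22, 6.28 and 6.32 in adenomas. Like the *Ung* reading, it was highest on adenoma replicate 1. The 24 probes with an AC run of that length had a median difference of -2.89, with 0 above 0. *Rad51c* followed the TG probes too, at 5.71, 5.04 and 5.56 in small intestine and 7.28, 5.95 and 6.28 in adenomas. The part of the repeat in the *Ung* and *Rad51c* values was not tested, and without these 2 genes 15 were called between adenoma and small intestine.

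**Figure D3:**
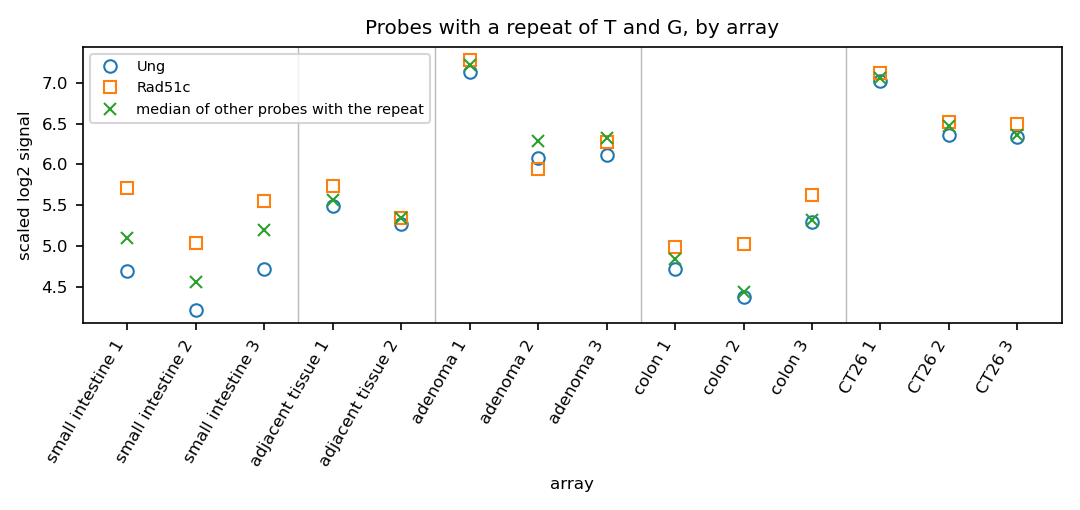
Level (scaled log2 signal) of the *Ung* probe, the *Rad51c* probe and the median of 51 other probes with a TG run of at least 20 bases, on each of the 14 arrays. The 3 series move together, highest on adenoma replicate 1 and CT26 replicate 1.

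In its median level of the repair genes the adjacent tissue lay between healthy small intestine and adenoma. Against it, 0 of 33 genes were called in adenomas (4.18% of 22199 genes were), and 15 had an unadjusted p under 0.05 (11324 of 29734 probes did). At an adjusted p of at most 0.05 with no limit on size, 8 were higher in adenomas (9.94% of all genes were higher by this rule). These were *Fanci* by 1.07, *Exo1* by 1.02, *Bard1* by 1.01, *Fanca* by 0.97, *Fancd2* by 0.96, *Rad18* by 0.91, *Xrcc5* by 0.90 and *Brca2* by 0.69, with adjusted p from 0.0151 to 0.0376 in limma. The median of the 33 was 0.56, against -0.04 for all genes. Between adjacent tissue and small intestine 0 of 33 were called, while 0.00924% of all genes were called, and the median was 0.69. An unadjusted p under 0.05 was found for 9 of the 33, and for 8748 of 28833 probes tested. *Blm* was nearest to the threshold there, at 1.004 with an adjusted p of 0.071. *Brca2* differed by 1.70 (adjusted p = 0.0758). These comparisons use the same arrays as the one of adenoma with healthy small bowel, and the 2 adjacent arrays limit their precision.

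CT26 cells differed from colon in other genes of the set as well. Of 34 genes tested (*Fancg* was too dim) 17 rose and 1 fell, where 21% of 21692 genes rose and 16.2% fell. The median log2 difference was 1.72, from -8.18 to 4.45, against 0.32 over all genes. Without colon replicate 3, 35 genes were tested and again 17 rose and 1 fell (20.1% and 19.4% of 23184 genes), with *Brca2* gained, *Rad54b* lost and a median of 1.65. Without CT26 replicate 3 the count of 18 became 11. On each slide, with 1 or 2 arrays per group, all 18 differed in the same direction, but they were called on these same arrays. Here a cell line is set against whole tissue, and fewer cells of a type cannot be told apart from less RNA per cell in the tissue groups.

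*Mgmt*, which removes methyl groups from the O6 position of guanine, was the only gene that fell. Its levels were 1.72, 0.67 and 0.47 in colon and -6.86, -7.40 and -7.42 in CT26 cells, where it was well above background on 0 of 3 arrays. The CT26 cells were at least 74.9-fold lower than colon (adjusted p = 4.33e-06), and at least 88.5-fold lower without colon replicate 3, on the scale used here. In this bound the mean of the CT26 arrays is replaced by the lowest signal that counted as well above background on each of them. The log2 difference was -4.53 with normexp correction and -4.26 with the authors' values, smaller than this bound, and still called in both. The other groups were all above background, at -0.34, -0.56 and -1.88 in small intestine, 0.29 and -0.49 in adjacent tissue and 0.03, 0.19 and -0.51 in adenomas, and these overlapped. The probe lies at chr7:144319790-144319849 in build NCBI37/mm9, on the plus strand.

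*Ercc1*, a subunit of the nuclease that cuts 5′ of a lesion in nucleotide excision repair, showed the largest rise, from 0.13, 0.16 and -0.94 in colon to 5.63, 3.33 and 3.76 in CT26. The difference was 4.45 ± 0.631, 21.9-fold, with an adjusted p of 0.000832, and 4.09 (adjusted p = 0.00162) without colon replicate 3. Without CT26 replicate 1, the brightest, it was 3.76. All 11 tissue arrays outside CT26 lay at or below 0.70, in small intestine replicate 3. It was read by 1 probe at chr7:19935530-19935589 (NCBI37/mm9, plus strand). *Xpc*, which recognises lesions in the same pathway, differed by 0.48 (adjusted p = 0.311).

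*Xrcc1*, *Ogg1*, *Xrcc6* and *Pms2* rose in CT26 to levels above every tissue array. *Xrcc1*, the scaffold of single-strand break repair, read 2.95, 2.88 and 2.52 in colon and 4.66, 4.86 and 4.80 in CT26, a rise of 1.99 ± 0.275 (adjusted p = 0.000735). *Ogg1*, the glycosylase for oxidised guanine, read 0.32, -0.01 and -0.14 against 1.25, 1.92 and 1.84, a rise of 1.61 ± 0.313 (adjusted p = 0.00374). *Xrcc6* read 3.09, 2.83 and 2.73 against 5.25, 4.80 and 4.93, a rise of 2.11 ± 0.284 (adjusted p = 0.000644). Its Ku partner *Xrcc5* differed by 1.51 with an adjusted p of 0.0127 and was not called. *Pms2*, the nuclease subunit of mismatch repair, read -0.71, -0.86 and -1.25 against 1.25, 1.45 and 1.05, a rise of 2.19 ± 0.292 (adjusted p = 0.000622), and its second probe rose by 2.71. Without colon replicate 3 the rises of *Xrcc1*, *Ogg1*, *Xrcc6* and *Pms2* were 1.86, 1.52, 2.03 and 2.03, all called. *Msh6* differed by 1.33 (adjusted p = 0.0177) and *Msh3* by 0.23 (adjusted p = 0.614).

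Recombination and fork genes rose in CT26 too. *Bard1* read -0.23, -0.20 and -0.60 in colon and 2.39, 2.92 and 2.69 in CT26, 8.05-fold higher (3.01 ± 0.293, adjusted p = 0.000131), with the probe that had not moved in adenomas now at 0.15 (adjusted p = 0.906). *Fancd2* read -3.93, -3.65 and -5.78 against -1.89, -0.91 and -1.21, a rise of 3.11 ± 0.589 (adjusted p = 0.00333) that was 2.45 without colon replicate 3 and 1.37 with normexp correction. The gene was dimmer on that array than on the other 2 colon arrays, where alone it was well above background. *Rad18* read -1.03, -0.80 and -1.30 against 1.62, 1.49 and 1.52 (2.59 ± 0.276, adjusted p = 0.000208), and its second probe rose by 3.06. *Xrcc2* rose by 2.51 ± 0.331 (adjusted p = 0.000596), from -2.93, -2.81 and -3.71 to -0.60, -0.53 and -0.81. For *Rad18* and *Xrcc2* the CT26 arrays lay close together and far above colon. The rises of *Bard1*, *Rad18* and *Xrcc2* were 2.88, 2.46 and 2.23 without colon replicate 3, and with normexp correction that of *Xrcc2* was 1.64.

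*Exo1* read -0.39, 0.02 and -0.21 in colon and 1.75, 2.97 and 2.44 in CT26 (rise of 2.58 ± 0.372, adjusted p = 0.000921). *Blm* read -1.42, -1.41 and -1.25 against 0.97, 1.33 and 0.98 (2.46 ± 0.271, adjusted p = 0.000245). *Atad5* read -1.52, -1.35 and -1.80 against 1.12, 0.60 and 0.43 (2.28 ± 0.310, adjusted p = 0.000689). The groups were far apart in all 3, and each was called whichever single array was left out, as were 11 of the 18 in all. *Atr* rose by 1.82 ± 0.315 (adjusted p = 0.0022), from 1.61, 1.47 and 1.03 to 3.52, 2.87 and 3.20. With colon replicate 3 left out, *Exo1*, *Blm*, *Atad5* and *Atr* rose by 2.57, 2.51, 2.15 and 1.65. *Rad54b* read -1.99, -1.69 and -2.89 against -0.89, 0.45 and 0.18, a rise of 2.10 ± 0.472 (adjusted p = 0.00725) that was 1.75 (adjusted p = 0.0127) without colon replicate 3. *Ung* and *Rad51c* rose by 1.78 and 1.50 (adjusted p = 0.00451 and 0.00675), beside a median difference of 1.70 over the 51 other TG probes, and without these 2 genes 16 were called. Leaving out colon replicate 3, they rose by 2.02 and 1.70, beside a median of 1.95.

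*Brca2* read -0.63, -0.79 and 1.58 in colon and 2.25, 2.72 and 3.06 in CT26. Colon replicate 3 was well above the other colon arrays and still below CT26, and the difference was 2.62 ± 0.636 (adjusted p = 0.0102) with it and 3.39 ± 0.332 (adjusted p = 0.000158, called) without it. *Brca1*, the tumour suppressor that works with BARD1 and PALB2, was dim, above background on 6 of 14 arrays. It read -5.38, -5.68 and -5.45 in colon, above background on 0 of 3, and -4.21, -3.07 and -4.10 in CT26. This was at least 1.68-fold higher, a bound under the size threshold. *Brca1* was called on its log2 difference of 1.71 (adjusted p = 0.00636 in limma), which rests on colon values below background. The call held in 1 of 6 fits with 1 array left out, the one without colon replicate 3, where the difference was 1.74. With normexp background correction that difference was 0.16 (adjusted p = 0.756). *Brca1* read -2.25 on small intestine replicate 3, above every other array, and -5.99 and -6.22 on the other 2 of that group. *Chek1*, above background on 7 of 14 arrays, differed by 0.24 between CT26 and colon (adjusted p = 0.534). At an adjusted p of at most 0.05 with no limit on size, 24 genes were higher in CT26 (32.7% of all genes were), the 17 with *Brca2*, *Fanca*, *Fanci*, *Parp1*, *Palb2*, *Msh6* and *Xrcc5*, and without colon replicate 3 the count was 23 (32% of all genes). The genes *Rad54l*, *Fancc*, *Xrcc3*, *Wrn*, *Atm* and *Chek2* differed by -0.62 to 1.39 and passed neither threshold, with or without that array.

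The adenoma comparison (against small intestine) and the CT26 comparison (against colon) have no array in common. Called higher in both were *Bard1*, *Rad54b*, *Xrcc2*, *Fancd2*, *Blm*, *Exo1*, *Atr*, *Atad5*, *Rad18* and *Ung*, which is 10 genes, 62.5% of the 16 and 58.8% of the 17. Over all genes the overlap was 933, 37.4% of those higher in adenomas and 20.5% of those higher in CT26. *Ung* is counted here by its TG repeat probe. Without colon replicate 3 the overlap was again 10 of the repair genes, with *Brca2* in place of *Rad54b*, and 922 of all genes.

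The difference between the 2 changes was tested for each gene in 1 fit of the 4 groups. It passed the thresholds for 5 of 35 genes (30.9% of 23445 genes passed), and the same 5 passed without colon replicate 3 (35.8% of all genes). For *Mgmt* the log2 change was 0.83 in adenomas and -8.18 in CT26, a difference of 9.01 (adjusted p = 7.47e-07) whose size is not measured, since no CT26 array read the gene as well above background. It was 5.22 with normexp correction and 4.99 with the authors' values. *Ercc1* differed by -0.02 in adenomas and 4.45 in CT26 (difference -4.48 ± 0.732, adjusted p = 0.00054). For *Xrcc1* the changes were 0.12 and 1.99 (difference -1.87 ± 0.278, adjusted p = 0.000278), for *Pms2* 0.67 and 2.19 (-1.52 ± 0.311, adjusted p = 0.00231) and for *Xrcc6* 0.61 and 2.11 (-1.50 ± 0.296, adjusted p = 0.00183). The differences of *Ercc1*, *Xrcc1*, *Pms2* and *Xrcc6* were -4.11, -1.74, -1.36 and -1.42 without colon replicate 3, and without CT26 replicate 1 that of *Ercc1* was -3.78. Under quantile normalization the differences of *Xrcc1* and *Xrcc6* were -1.13 (adjusted p = 0.0126) and -0.76 (adjusted p = 0.0543) and no longer passed, nor did they with the values the authors normalized, at -1.19 and -0.80. At an adjusted p of at most 0.05 with no limit on size 8 passed (45.4% of all genes did), the added ones being *Xrcc2* (-1.28, adjusted p = 0.0138), *Ogg1* (-1.21, adjusted p = 0.0177) and *Blm* (-0.83, adjusted p = 0.0252).

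**Figure D4:**
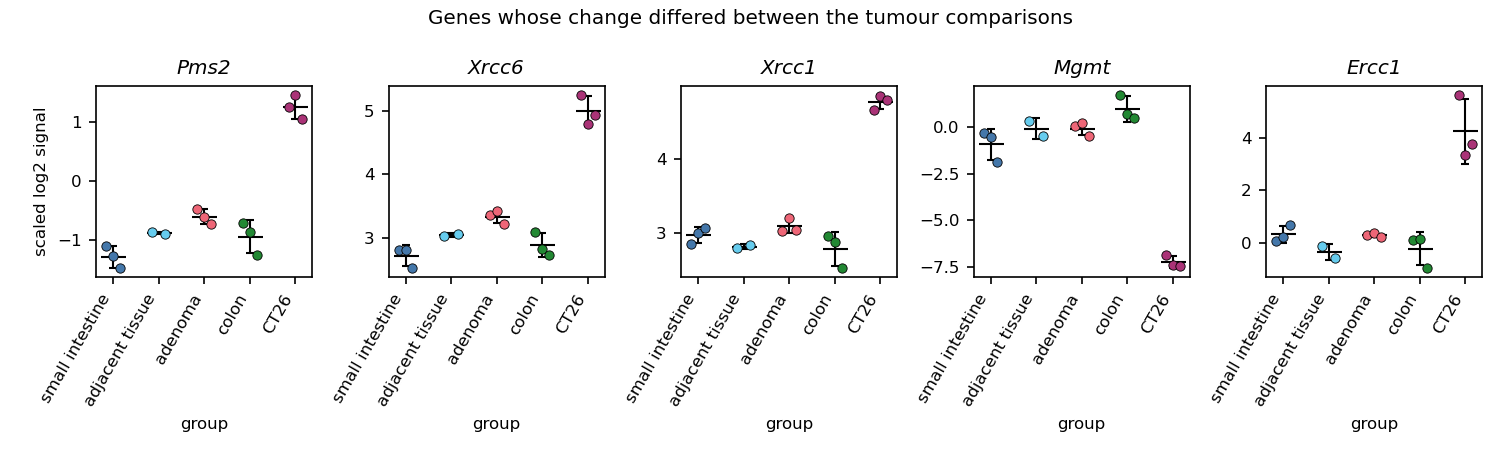
Level (scaled log2 signal) of *Pms2*, *Xrcc6*, *Xrcc1*, *Mgmt* and *Ercc1* on each array by group, with the mean and standard deviation of each group. CT26 stands above the 4 tissue groups for *Pms2*, *Xrcc6*, *Xrcc1* and *Ercc1* and below them for *Mgmt*.

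Against colon, adenomas gave 0 calls among 33 genes, where 3.7% of all genes were called. An unadjusted p under 0.05 was found for 16 (8269 of 29174 probes), and 7 were higher at an adjusted p of at most 0.05 (6.8% of all genes were). These 7 were *Ung*, *Exo1*, *Bard1*, *Blm*, *Rad18*, *Atad5* and *Msh6*, by 0.74 to 1.64. Without colon replicate 3, 15 were higher at that threshold (14.1% of all genes) and 3 rose (5.03% of 23064 genes did): *Exo1* by 1.32 ± 0.195 (adjusted p = 0.0066), *Brca2* by 1.24 ± 0.162 (adjusted p = 0.0043) and *Blm* by 1.22 ± 0.143 (adjusted p = 0.0032). Between colon and small intestine 0 of 31 genes were called, as 0.00969% of all genes were, and 0 passed an adjusted p of 0.05 (0.538% did). An unadjusted p under 0.05 was found for 6 (6414 of 27302 probes). Without colon replicate 3 the count called was 0 of 33 (7.23%). At an adjusted p of at most 0.05, without that array, *Mgmt* was higher in colon by 2.12, *Atm* by 1.41, *Fancc* by 0.97 and *Xrcc2* by 0.84 (adjusted p from 0.03 to 0.0403, where 11.3% of all genes were higher).

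A further 84 listed genes of the same pathways were found on the array. Between adenoma and small intestine 14 of 83 tested rose and 1 fell, with a median of 0.53, where 11.3% of all genes rose and 11.1% fell. The replication checkpoint genes *Timeless* (2.39 ± 0.310, adjusted p = 0.00111) and *Clspn* (2.11 ± 0.339, adjusted p = 0.00261) led, and *Slx4*, a scaffold for nucleases, fell by 1.37 (adjusted p = 0.0032). By pathway, 5 of 15 checkpoint genes rose, 0 of 12 nucleotide excision genes and 0 of 7 end joining genes, and these shares were not tested against one another. Between CT26 and colon 32 of 82 tested rose and 0 fell, with a median of 1.10, where 21% of all genes rose and 16.2% fell, and without colon replicate 3 it was 30 and 1. Among them *Ube2t*, the ubiquitin conjugating enzyme of the Fanconi pathway, rose by 3.30 ± 0.532 (adjusted p = 0.00157) and *Rad51ap1*, of homologous recombination, by 3.11 ± 0.260 (adjusted p = 6e-05). By pathway, 9 of 15 checkpoint, 6 of 14 recombination, 4 of 7 Fanconi, 4 of 7 translesion and 2 of 12 nucleotide excision genes rose in CT26, again with no test between pathways.

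Proliferation genes rose in the same comparisons as the repair genes, and cell type markers differed between the groups in either direction. Of 10 proliferation genes 8 rose in adenomas over small intestine (median 1.91) and 8 in CT26 over colon (median 2.59), or 9 without colon replicate 3 (median 2.43). *Top2a* rose in both, while *Mki67* was called in neither. It differed by 1.65 (adjusted p = 0.0103 in limma) and 0.81 (adjusted p = 0.0499), or 0.64 (adjusted p = 0.0901) without colon replicate 3. The median level of the 10 genes was 1.01 to 2.31 in small intestine, 2.29 to 2.32 in adjacent tissue, 3.35 to 3.43 in adenomas, 2.20 to 2.48 in colon and 4.95 to 5.22 in CT26. The median of the 35 repair genes was -1.60 to -0.86, -0.49 to -0.38, 0.03 to 0.23, -0.70 to -0.60 and 0.97 to 1.37 in the same groups. Both medians were higher on every adenoma array than on any array of normal or adjacent tissue, and higher again in CT26. The summed level of 10 enterocyte genes was 2652 to 3989 in small intestine, 1543 to 1969 in adjacent tissue, 364 to 603 in adenomas and 1.27 to 2.10 in CT26. The 8 smooth muscle genes summed to 137 to 511 in small intestine, 91.9 to 113 in adenomas, 519 to 706 in colon and 0.63 to 1.30 in CT26, and the 8 epithelial genes to 2639 to 3262, 1659 to 1994, 1538 to 3062 and 36.4 to 56.5. The 8 fibroblast genes summed to 17.1 to 76.9 in small intestine, 97.5 to 113 in adenomas, 40.2 to 89.6 in colon and 216 to 314 in CT26. The CT26 sum was mostly *Col1a2*, with levels of 7.70, 8.08 and 8.12. The median level of the 8 was 0.81 to 1.95 in small intestine, 2.84 to 2.94 in adenomas, 1.39 to 2.84 in colon and -1.59 to 1.08 in CT26. In small intestine, adenomas, colon and CT26 the 8 myeloid genes summed to 65.0 to 95.2, 18.9 to 28.0, 47.2 to 68.9 and 15.8 to 17.6. Their median level was instead highest in adenomas, at -1.34 to -0.71, 0.43 to 0.89, -1.61 to -0.45 and -4.63 to -3.92 in that order of groups. *Itgam* made up most of the small intestine sum, with levels of 5.47, 6.31 and 6.34, against 2.17, 3.34 and 3.33 in adenomas. The 8 T cell genes summed to 10.6 to 18.2, 6.01 to 7.07, 4.29 to 8.28 and 3.67 to 7.55. Their median level was -0.12 to 0.83, -2.38 to -1.85, -2.31 to -1.33 and -5.23 to -5.06 in the same order of groups. The part of proliferation and of cell type content in the repair gene values was not tested.

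**Figure D5:**
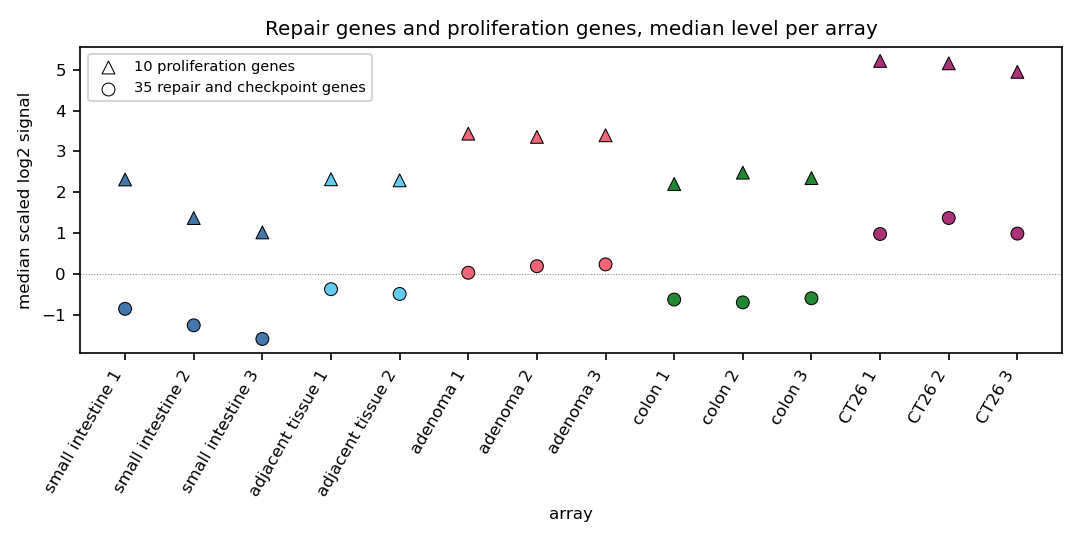
Median level (scaled log2 signal) of the 35 repair genes and of the 10 proliferation genes on each of the 14 arrays, by group. Both medians are higher in adenomas than on any array of normal or adjacent tissue, and highest in CT26.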

How the data were processed

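RNA of 14 samples was labelled with 1 dye and hybridized to Agilent SurePrint G3 Mouse arrays of 62976 spots and 55681 probes that are not controls, placed in build NCBI37/mm9. Scanner files deposited by the authors, 1 per array and made by Feature Extraction 10.7.3.1 per the file headers, hold a processed signal, an intensity with background subtracted and arrays not scaled to one another. A further deposited file holds log2 values that the authors normalized between arrays, by a method not given in the sources used here. Its fold changes and p-values, the authors' own comparisons, were not used, nor were 28 further columns of values per sample.

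Control spots and spots marked as outliers (103 to 206 per array) were left out, the log2 intensity was taken relative to the 75th percentile of its array, and spots of a probe were averaged. Between 46.8% and 58.2% of probes were well above background. Arrays give no read depth, and their number limits the precision. Groups were taken from the sample labels and compared in pairs with limma 3.58.1 (R 4.3.3, Python 3.11.15), fitting only the arrays of the groups compared, with Benjamini-Hochberg adjustment over all probes tested and the thresholds of the study's methods. The script was tested on simulated data. A fold against a group whose arrays were all below background is given as a bound, the mean of the bright group over that of the dim one with each array at the higher of its lowest well above background signal and the probe's own value. The p-values measure the spread between these samples, which may be technical.

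All 35 genes were described by role, with values per array for those called, and other pathway genes as counts with the 2 that changed most in each direction. The members and lists were chosen with earlier results of these data known. The leaving out of *Ung* and *Rad51c* was added after the data were seen. Alternatives were the authors' table, normexp correction with an offset of 50, quantile normalization, other filters and fits, blocks for slide and replicate number, and each array left out in turn.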

Additional observations from a re-analysis of the deposited data

Results flagged for a closer look

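For 5 of 35 genes the change from small intestine to adenoma and the change from colon to CT26 differed, by a test of the difference itself on the log2 scale. That is 14.3% of the set, below the 30.9% of 23445 genes on the array that passed. The difference, adenoma change minus CT26 change, was 9.01 for *Mgmt*, -4.48 for *Ercc1*, -1.87 for *Xrcc1*, -1.52 for *Pms2* and -1.50 for *Xrcc6*. The *Mgmt* value rests on CT26 arrays that were all below background, and those of *Xrcc1* and *Xrcc6* were under the size threshold with the authors' normalized values and with quantile normalization. Groups of 2 or 3 arrays are too small for a formal outlier test. Colon replicate 3 and the *Brca1* reading of small intestine replicate 3 are described above.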

How the results depend on the processing

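The count of 16 genes called between adenoma and small intestine ran from 11 to 17 under other scalings, filters and fits, and from 5 to 19 with 1 array left out. The 18 called between CT26 and colon ran from 13 to 23 and, with 1 array left out, from 11 to 18. Between adenoma and adjacent tissue the count of 0 became 8 at an adjusted p of at most 0.05. Between adenoma and colon the count of 0 became 7 at that threshold, 2 with all 5 groups in 1 fit or with an intensity trend, 1 with any probe of a gene, with the authors' table or with quantile normalization, and 0 to 3 with 1 array left out, 3 being without colon replicate 3. The 5 genes whose changes differed became 8 at an adjusted p of at most 0.05, 3 with quantile normalization and 5 to 6 with 1 array left out. The causes were not tested. Of 604 values of single called genes under an alternative, 487 kept the call, 117 lost it with the direction kept and 0 reversed. The same replicate number does not pair samples by the labels, and deviations of same-numbered arrays correlated between -0.12 and 0.12 in both tumour comparisons. A fit with that number as a replicate block called 14 genes for adenoma against small intestine, 14 for CT26 against colon and 5 for the difference of changes. The median of all genes between adenoma and small intestine was -0.15, and -0.03 with quantile normalization, while that of the repair genes was 1.19 and 1.32. Between CT26 and colon it was 0.32, and 0.11 with normexp correction, beside 1.72 and 1.50. Over all genes the number called at the main thresholds also moved by setting: 4951 for adenoma against small intestine ran from 3218 to 5943, 8070 for CT26 against colon from 5138 to 9581, 928 for adenoma against adjacent tissue from 0 to 1307, 808 for adenoma against colon from 4 to 2701, and 2 in each of the comparisons of adjacent tissue and of colon with small intestine up to 136 and 1635.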
